A study of Mus musculus with 15 samples.

Results

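The integrated stress response and the unfolded protein response were followed through 36 genes, named from these pathways and matched to the rows of the count table whose identifier was the gene's symbol. All 36 were found among the 54456 genes of the table, and all 36 passed the filter on low counts, which kept 18140 genes. They were kept apart as an ATF4 arm of 19 genes (10 regulators and stress effectors, and 9 genes of amino acid and one-carbon metabolism) and an endoplasmic reticulum (ER) arm of 17 genes (3 sensors and signal carriers, and 14 chaperones and genes of folding and ER-associated degradation). Throughout, CPM is the count relative to the library's total, scaled by the TMM factors of edgeR, and a gene is said to have risen or fallen where edgeR's quasi-likelihood test gave a Benjamini-Hochberg adjusted p under 0.05 over all 18140 genes. Differences are log2 values, the first group minus the second, given with ± SE. Counts at an unadjusted p under 0.05 are description only, since the share of all genes at that threshold is not given.

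The libraries came from WT mouse mammary epithelial organoids, which are small pieces of gland epithelium kept in DMEM/F12 medium with L-Ala-Gln, ITS and P/S. In an assay of collective migration, the organoids were exposed to beads loaded with fibroblast growth factor 10 (FGF10), a ligand of the gland's stroma, or with bovine serum albumin (BSA), and the series asks whether an epithelial-mesenchymal transition accompanies the migration. There were 5 groups of 3 libraries: organoids at 0 h, organoids with BSA beads at 36 h and 72 h, and organoids with FGF10 beads at 36 h and 72 h. The labels give the genotype WT for every library and no strain, age or sex, and they do not say whether the libraries of a group are separate cultures or animals, so p-values measure only the spread between these libraries. The titles of the 3 FGF10 72 h libraries read FGF0, while their treatment label reads FGF10, which was followed here.

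Library totals ranged from 11965322 to 24261233 counts. Replicate 1 at 0 h stood apart for several members: Atf3 was at 116, 1646 and 568 CPM and Psat1 at 44.1, 10.8 and 6.33 CPM in 0 h replicates 1, 2 and 4. Replicate 4 of FGF10 36 h stood apart for others, with Hyou1 at 22.3, 22.1 and 4.87 CPM and Calr at 846, 793 and 443 CPM in replicates 1, 3 and 4, and with 1.11% of its counts from mitochondrial genes against 3.97% and 3.60% in its group. Epithelial markers were high throughout: the summed level of 9 luminal markers was lowest in BSA 72 h, at 13839 to 14836 CPM, and highest at 0 h, at 29815 to 43315 CPM. That of 8 basal markers was lowest in BSA 36 h, at 8496 to 9360.0 CPM, and highest in FGF10 72 h, at 20410.0 to 22633 CPM. In RNA from whole organoids, fewer cells of a type and less RNA per cell cannot be told apart.

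As background, several kinases that sense stress, among them the ER sensor PERK, phosphorylate the initiation factor eIF2; general translation then slows while the mRNA of the transcription factor ATF4 is translated, and ATF4 switches on genes for amino acid supply, one-carbon metabolism and, under lasting stress, cell death. The unfolded protein response has further branches: IRE1 splices the mRNA of XBP1, and ATF6 is cut and moves to the nucleus, and both raise chaperones and degradation factors of the ER. Secretory epithelium such as that of the mammary gland passes large amounts of protein through the ER, and both responses have been described in it. Because ATF4 is controlled mostly by translation and XBP1 by splicing, gene-level mRNA counts do not show their activation. They give the mRNA levels of target genes, and which factor set those levels was not tested.

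Short promoter elements known to bind the factors of either arm were searched for first. RefSeq promoter windows (GRCm38.p6, 250 bases before to 50 after the annotated start) were found for 33 of the 36 members, and 5 motifs were searched in them on both strands. The C/EBP-ATF response element (CARE, TGATGNAA), which C/EBP-ATF dimers including ATF4 bind, was in the windows of 7 of 18 ATF4-arm members and 1 of 15 ER-arm members, against 3.97% of all 32851 windows in the table. The matches before the start are shown with 6 bases on each side, read so that the element (capitals) runs 5′ to 3′, to let the members be compared.
Atf3: acttggTGATGCAAgtgcga
Nupr1: cctgtcTGATGCAAtctggc
Chac1: caggagTGATGCAAcggcag
Vldlr: gagcgcTGATGCAActattg
Asns: gccacaTGATGAAActtccc
Slc7a11: tgtggcTGATGCAAacctgg
Slc7a11: gcatgaTGATGCAAattctc
Herpud1: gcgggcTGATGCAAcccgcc

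The seventh ATF4-arm match, in Trib3, lay after the annotated start and began 14 bases from it. The ER stress response element (ERSE, the boxes CCAAT and CCACG with 9 bases of any kind between them), known to be read by ATF6 with NF-Y, was in 0 of 18 ATF4-arm windows and 6 of 15 ER-arm windows, against 0.119% of all windows. Its shorter form (ERSE-II, ATTGG and CCACG with 1 base between them) was in 0 of 18 and 2 of 15, against 0.0365%. The ERSE matches, and the ERSE-II match of Herpud1, are shown in the same way.
Hspa5: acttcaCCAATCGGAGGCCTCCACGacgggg
Hsp90b1: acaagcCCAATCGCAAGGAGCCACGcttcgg
Hsp90b1: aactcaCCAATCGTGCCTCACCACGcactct
Calr: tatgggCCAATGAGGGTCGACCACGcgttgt
Dnajc3: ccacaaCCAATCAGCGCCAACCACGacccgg
Creld2: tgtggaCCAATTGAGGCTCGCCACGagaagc
Pdia6: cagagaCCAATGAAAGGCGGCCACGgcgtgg
Herpud1: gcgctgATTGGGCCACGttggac

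The other ERSE-II match was in Dnajb11, after its start. The XBP1 element TGACGTGG was in no member's window (0.676% of all windows), and the cyclic AMP element TGACGTCA was in that of Ppp1r15a alone (1.79% of all windows). No match of one motif overlapped a match of another in these windows. Herpud1, which encodes an ER membrane protein of the degradation machinery, was thus the one member whose window held both a CARE and an ERSE-type element. Its promoter, that of Chac1 (CARE) and that of Hspa5 (ERSE) are given as the 250 bases before the start, all on the plus strand, with matched elements in capitals, since the results below turn on the first 2 and the last is the reference chaperone. They lie at chr8:94386179-94386428 (Herpud1), chr2:119350992-119351241 (Chac1) and chr2:34771840-34772089 (Hspa5).
Herpud1: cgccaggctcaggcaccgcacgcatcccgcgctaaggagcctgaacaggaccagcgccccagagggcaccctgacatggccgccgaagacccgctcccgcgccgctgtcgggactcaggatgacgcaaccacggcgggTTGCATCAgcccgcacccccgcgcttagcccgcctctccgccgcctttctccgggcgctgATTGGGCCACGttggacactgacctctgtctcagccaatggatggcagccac
Chac1: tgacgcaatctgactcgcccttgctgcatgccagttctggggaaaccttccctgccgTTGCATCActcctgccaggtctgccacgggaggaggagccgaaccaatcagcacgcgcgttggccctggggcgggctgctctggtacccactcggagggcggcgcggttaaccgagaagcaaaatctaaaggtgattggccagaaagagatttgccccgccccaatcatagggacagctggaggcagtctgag
Hspa5: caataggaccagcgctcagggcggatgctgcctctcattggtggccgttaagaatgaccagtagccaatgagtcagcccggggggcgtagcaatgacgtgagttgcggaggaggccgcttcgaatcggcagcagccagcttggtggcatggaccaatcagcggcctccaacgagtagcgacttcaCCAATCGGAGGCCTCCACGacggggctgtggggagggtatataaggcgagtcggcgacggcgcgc

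In the Herpud1 window the CARE begins 112 and the ERSE-II 52 bases before the start. The windows of Ddit3 and Sesn2, also described below, held none of the 5 motifs, and those of Slc7a5, Hyou1 and Manf were not used here. A match is a description of letters in a window and shows no binding. A member was counted if any of its windows matched, while the shares over all windows count single windows. Since the members were named from these pathways, their shares are description and no test of the arms.

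Levels per length differed widely among the members. As the mean of the 5 group means in CPM per kilobase of exon, the highest were Nupr1 (924), a small chromatin protein induced by stress, the ER lectin Calr (261), the transcription factor Cebpb (184) and the ER chaperone Hspa5 (141). The lowest were the cystine transporter Slc7a11 (0.647), the lipoprotein receptor Vldlr (0.996), the PERK gene Eif2ak3 (1.27) and the IRE1 gene Ern1 (1.39). The median was 11.4 CPM per kilobase in the ATF4 arm and 36.5 in the ER arm, and the ranges of the arms overlapped. Atf4 itself stood at 62.5, above every other ATF4-arm member but Nupr1, Cebpb, Slc3a2 and Atf3, whose mean of 78.9 rested on the 0 h group (361; 5.68 at FGF10 72 h).

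**Figure D1:**
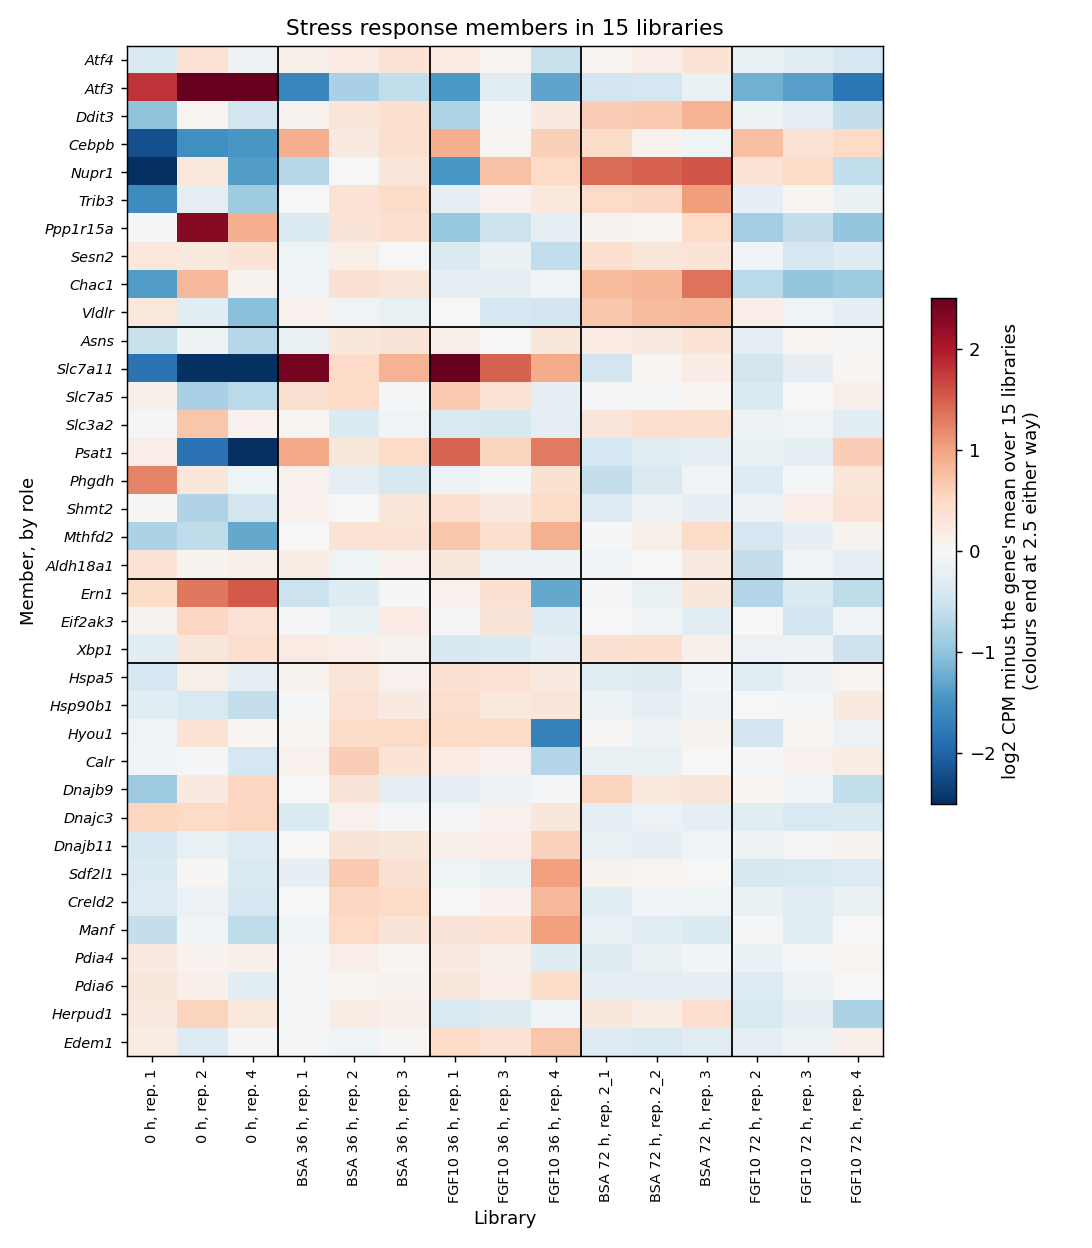
Each row is one of the 36 members, ordered by role, and each column 1 of the 15 libraries; colour gives log2 CPM minus the gene's mean over the 15 libraries, and horizontal lines part regulators, amino acid and one-carbon genes, sensors and chaperones. Atf3 and Ern1 are high at 0 h, Cebpb and Slc7a11 are low at 0 h, and most regulators are higher with BSA at 72 h than with FGF10 at 72 h.

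FGF10 was compared with BSA first at 72 h. At 72 h with FGF10, 4 of the 36 members were lower than with BSA and 0 were higher, in edgeR's test; 0 were higher also at an unadjusted p under 0.05, by limma voom and by DESeq2. Over all genes tested, 5.99% were called, 2.98% lower and 3.01% higher. The members that fell were Chac1, Ddit3 and Sesn2 of the ATF4 arm and Herpud1 of the ER arm. The median log2 difference was -0.48 over the ATF4 arm, -0.05 over the ER arm and -0.01 over all genes tested, with 15 of 19 ATF4-arm members and 9 of 17 ER-arm members on the lower side. Within the ATF4 arm the regulators had a median of -0.92 (9 of 10 on the lower side) and the amino acid and one-carbon genes -0.14 (6 of 9); within the ER arm the chaperones and degradation genes had 0.09 (6 of 14).

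Chac1, a glutathione-degrading enzyme induced through ATF4, stood at 9.65, 9.9 and 14.2 CPM with BSA at 72 h and at 3.4, 2.7 and 2.92 CPM with FGF10. Every FGF10 library was below every BSA library, and below all 3 libraries of either 36 h group (5.17, 7.17 and 6.84 CPM with BSA, 4.64, 4.71 and 5.19 CPM with FGF10). At 0 h the spread was wide, 2.03, 9.68 and 5.89 CPM. Chac1 was 3.72-fold lower with FGF10 at 72 h (log2 difference -1.90 ± 0.39 SE, adjusted p = 0.0138, edgeR), the largest difference of any member in this comparison.

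Ddit3, which encodes the death-associated factor CHOP, stood at 35.5, 36.3 and 42.5 CPM with BSA and 21.2, 19.9 and 15.4 CPM with FGF10 at 72 h. The groups did not overlap, and the 3 BSA 72 h libraries were also above all 12 others. The fold was 2.03 (log2 difference -1.02 ± 0.26 SE, adjusted p = 0.0322, edgeR); 4.73% of Ddit3's exon bases are shared with other genes, Gm4189 and Mars1, whose reads the counting cannot part from it.

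Sesn2, a sestrin that restrains the growth kinase mTORC1, stood at 14.4, 13.4 and 13.6 CPM with BSA and 10.3, 8.11 and 8.65 CPM with FGF10 at 72 h. The BSA libraries were as high as those at 0 h (13.1, 12.8 and 13.8 CPM), and the FGF10 libraries were all lower than both. Its fold was 1.53 (log2 difference -0.61 ± 0.15 SE, adjusted p = 0.0296, edgeR).

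Herpud1 stood at 96.9, 91.3 and 108 CPM with BSA and 61.3, 67.3 and 46.1 CPM with FGF10 at 72 h. No library overlapped, and the BSA libraries overlapped those of 0 h (93.6, 117 and 96.5 CPM). Herpud1 was 1.69-fold lower (log2 difference -0.76 ± 0.15 SE, adjusted p = 0.0113, edgeR). The chaperone Hspa5 (BiP) was at 484, 479 and 563 CPM with BSA and 486, 541 and 617 CPM with FGF10 (0.11 ± 0.16, adjusted p = 0.742), with overlapping groups. The co-chaperones Dnajb9 (-0.58 ± 0.29, adjusted p = 0.238) and Sdf2l1 (-0.42 ± 0.28, adjusted p = 0.384) were lower in every FGF10 library without passing by edgeR; a fit of these groups alone called both lower, and limma voom called Sdf2l1.

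**Figure D2:**
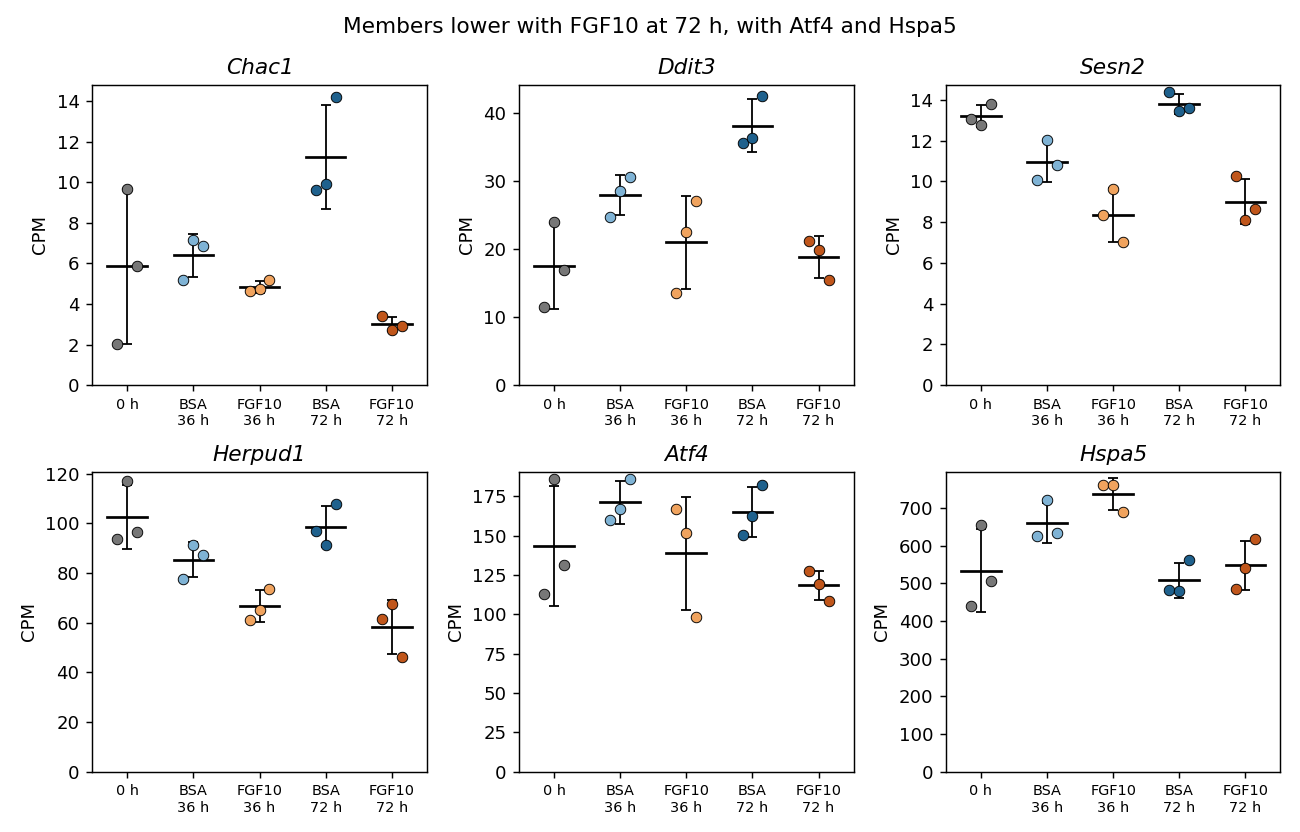
CPM of 6 members in every library by group (points), with the group mean (line) and SD (bar; n = 3), each panel on its own linear axis from 0. Chac1, Ddit3, Sesn2 and Herpud1 are lower in the 3 FGF10 72 h libraries than in the 3 BSA 72 h libraries without overlap, Atf4 is also lower without passing the test, and the groups overlap for Hspa5.

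Atf4 mRNA stood at 151, 162 and 182 CPM with BSA and 127, 119 and 109 CPM with FGF10 at 72 h. The groups did not overlap, but the difference missed the threshold (-0.48 ± 0.20, adjusted p = 0.157). The other regulators gave the pseudokinase Trib3 at 26.9, 27.8 and 40.1 against 16.6, 19.9 and 17.2 CPM (-0.82 ± 0.27, adjusted p = 0.0819), and Vldlr at 15.4, 16.4 and 16.7 against 10.6, 8.79 and 7.92 CPM (-0.83 ± 0.26, adjusted p = 0.067). In both, each FGF10 library was below each BSA library.

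Ppp1r15a, which encodes GADD34, the factor that brings a phosphatase to eIF2, stood at 40.03, 38.8 and 53.2 CPM with BSA and 20.6, 24.8 and 19.3 CPM with FGF10 (-1.03 ± 0.45, adjusted p = 0.192). Nupr1 stood at 4673, 4947 and 5231 and 2242, 2465 and 1157 CPM (-1.34 ± 0.69, adjusted p = 0.265). Atf3, a repressor of the ATF family, stood at 24, 24.7 and 29.7 and 14.4, 12.8 and 9.44 CPM (-1.10 ± 0.71, adjusted p = 0.383). None of these 3 passed the test. Their groups did not overlap, which with 3 libraries per group is description only. The exception among the regulators was Cebpb, the C/EBP factor, at 324, 253 and 221 CPM with BSA and 402, 304 and 336 CPM with FGF10, on the higher side (0.39 ± 0.25, adjusted p = 0.375), where 20.7% of exon bases are shared with Tmem189.

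In the metabolic genes, the heavy chain of the amino acid transporters, Slc3a2, was at 348, 379.6 and 375 CPM with BSA and 255, 267 and 236 CPM with FGF10 (-0.54 ± 0.17, adjusted p = 0.0761), without overlap. The serine synthesis genes Phgdh (0.35) and Psat1 (0.44) and the mitochondrial serine enzyme Shmt2 (0.36) had log2 differences on the higher side, and Mthfd2, Asns, Aldh18a1, Slc7a11 and Slc7a5 on the lower side (-0.37 to -0.06). In the ER arm Xbp1 stood at 533, 537 and 445 and 370.2, 374 and 285 CPM (-0.56 ± 0.17, adjusted p = 0.0661), with every FGF10 library lower. The remaining 15 ER-arm members ranged from -0.61 (Ern1) to 0.25 (Edem1) on the log2 scale.

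The 72 h count depended on single libraries: it was 0 without BSA 72 h replicate 3 or without FGF10 72 h replicate 4, and up to 16 in a fit of these groups alone. Over all genes 541 of 18140 were lower in the main fit, and 124 of 18703 and 60 of 18765 without those libraries in turn. In the fit of these groups alone 2466 of 16881 genes were lower. Chac1 and Herpud1 kept their call when BSA 72 h libraries 2_1 and 2_2, which may share a culture, were summed, and Ddit3 (adjusted p = 0.0806, edgeR) and Sesn2 did not. Replicate 1 of 0 h and replicate 4 of FGF10 36 h are in neither group, and act through the shared filter, normalization and estimate of the spread. Leaving out both gave 10 lower members, 7 of the ATF4 arm and 3 of the ER arm. Over all genes 1218 of 18577 were then lower.

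Markers of other cells also differed between these groups. For adipocytes the summed level of 9 markers was 425 to 434 CPM (BSA 72 h) and 11.3 to 74.8 CPM (FGF10 72 h), where 5 of 9 fell by edgeR (9 by limma voom) and none was at 0 in a group. The 8 endothelial markers summed to 50.03 to 129 and 9.26 to 19 CPM (2 of 8 fell), and the 9 fibroblast markers to 647 to 764 and 193 to 467 CPM (0 of 9 called by edgeR, 6 at an unadjusted p under 0.05, all lower; 2 fell by limma voom and 4 by DESeq2). The 10 leukocyte markers summed to 531 to 726 and 328 to 524 CPM (6 of the 8 tested fell; Cd3e was at 0 with FGF10), while plasma and B cell markers were near 0 in both (0.354 to 0.77 and 0.0845 to 0.257 CPM; Igkc at 0 in both). The basal epithelial sum was 9114 to 11043 CPM with BSA and 20410.0 to 22633 CPM with FGF10 (3 of 8 rose, 2 fell), and mitochondrial genes took 2.21% to 2.60% and 3.90% to 4.55% of counts. Their part in the lower level of Chac1, Ddit3, Sesn2 and Herpud1 was not tested.

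At 36 h, 0 of 36 members were called between FGF10 and BSA by edgeR, against 2.34% of all genes tested (0.954% higher, 1.39% lower). At an unadjusted p under 0.05 there were 5, with Mthfd2 and Edem1 on the higher side and Sesn2, Herpud1 and Xbp1 on the lower. limma voom called Edem1 higher and Xbp1 lower, and DESeq2 called Edem1 higher. The ATF4 arm had a median log2 difference of -0.00 and the ER arm 0.04, against 0.00 over all genes tested; the regulators stood at -0.27 (7 of 10 on the lower side).

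Edem1, a lectin that draws misfolded glycoproteins into degradation, was at 31.2, 29.8 and 32.4 CPM with BSA and 43.6, 40.5 and 51.5 CPM with FGF10 at 36 h. The groups did not overlap (0.54 ± 0.14, adjusted p = 0.0577). Xbp1 stood at 469, 456 and 436 and 309.8, 319 and 349.9 CPM, also without overlap (-0.48 ± 0.17, adjusted p = 0.147). Herpud1 was at 77.6, 91.3 and 87.1 CPM with BSA and 60.9, 65.1 and 73.7 CPM with FGF10 (-0.36 ± 0.15, adjusted p = 0.206), and Sesn2 at 10.1, 12 and 10.8 and 8.36, 9.65 and 7.02 CPM (-0.39 ± 0.15, adjusted p = 0.176). Both were lower in every FGF10 library, the side they took at 72 h. Ddit3 (24.7, 28.5 and 30.6 against 13.5, 22.5 and 26.9 CPM), Chac1 and Atf4 (160.2, 167 and 186 against 167, 152 and 98.2 CPM) differed by -0.41, -0.40 and -0.30 on the log2 scale, none past the test.

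Whether the FGF10-BSA difference changed between 36 h and 72 h was tested directly as an interaction. By edgeR 0 of 36 members and 0% of all genes were called (3 members at an unadjusted p under 0.05: Chac1 and Mthfd2 toward lower, Calr toward higher), and limma voom and DESeq2 also called 0. For Chac1 the change was -1.50 ± 0.54, adjusted p = 0.782, so the larger difference at 72 h was not shown to differ from that at 36 h.

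**Figure D3:**
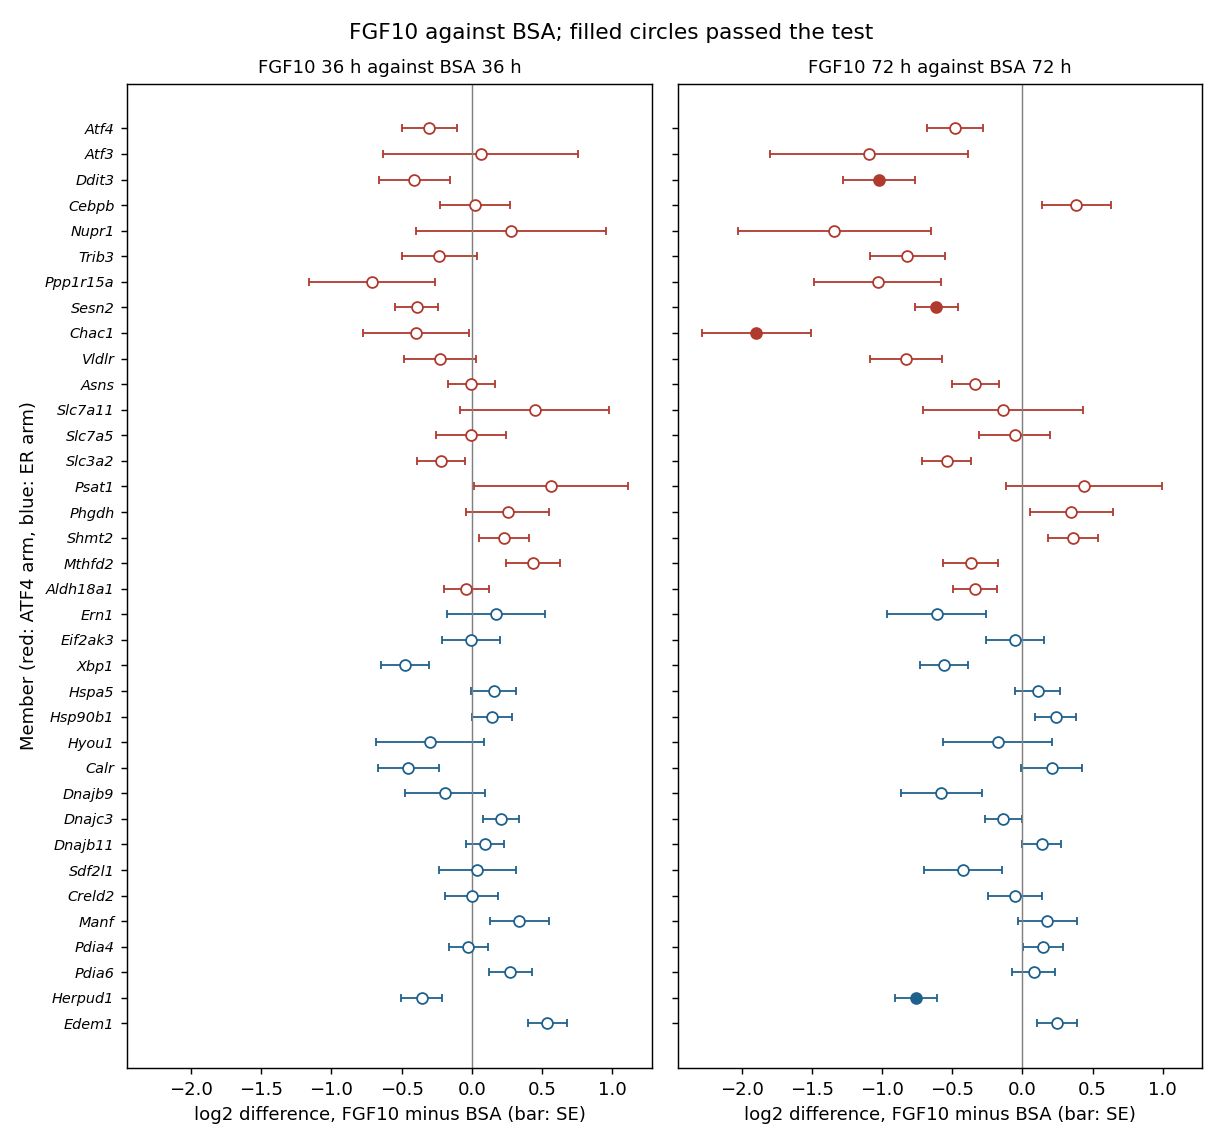
Points are the log2 difference between FGF10 and BSA at 36 h (left) and 72 h (right) for each of the 36 members, with bars of 1 SE; red is the ATF4 arm, blue the ER arm, and filled circles passed the test. No circle is filled at 36 h; at 72 h Ddit3, Sesn2, Chac1 and Herpud1 are filled, all on the lower side.

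Each cultured group was then compared with 0 h, and these comparisons share the 3 libraries of 0 h. With BSA at 36 h, 9 members were higher and 3 lower than at 0 h, where 27.1% of all genes were called (12.7% higher, 14.4% lower). With FGF10 at 36 h the counts were 14 and 8, against 39.8% of all genes (19.3% and 20.5%). At 72 h they were 8 and 4 with BSA, against 25.2% of all genes (12.2% and 13%), and 5 and 7 with FGF10, against 29.9% (13.8% and 16%). As shares of the 36 members these were 33.3%, 61.1%, 33.3% and 33.3%, near the share over all genes except in FGF10 36 h, where the share was higher; this difference was not tested. In the ATF4 arm 5, 8, 8 and 4 of 19 were higher in BSA 36 h, FGF10 36 h, BSA 72 h and FGF10 72 h, and in the ER arm 4, 6, 0 and 1 of 17. The count of 0 for the ER arm at BSA 72 h was 0 also at an unadjusted p under 0.05, by limma voom and by DESeq2.

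Among the regulators, Atf3 showed the largest change of any member. It stood at 116, 1646 and 568 CPM at 0 h, at 10.6, 18.8 and 21.8 CPM with BSA and 12.2, 27.9 and 13.3 CPM with FGF10 at 36 h. All 12 cultured libraries (9.44 to 14.4 CPM in the lowest group, FGF10 72 h) were below all 3 at 0 h, which differed widely among themselves. Atf3 fell at 36 h with BSA (log2 difference -5.50 ± 0.82 SE, adjusted p = 0.000538) and with FGF10 (log2 difference -5.44 ± 0.81 SE, adjusted p = 0.000377, edgeR). At 72 h its differences from 0 h were -4.89 (BSA) and -5.99 (FGF10), both called. Without 0 h replicate 2, the highest, the 4 log2 differences were -4.32, -4.26, -3.71 and -4.81, all called.

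Cebpb moved the other way. It was at 51.8, 82.2 and 86.9 CPM at 0 h, 446, 279 and 313 CPM with BSA and 444, 249 and 361 CPM with FGF10 at 36 h. The lowest cultured group, BSA 72 h, spanned 221 to 324 CPM, so every cultured library was above every 0 h library. Cebpb rose 4.71-fold with BSA (log2 difference 2.23 ± 0.26 SE, adjusted p = 2.77e-05) and 4.78-fold with FGF10 (2.26 ± 0.26, adjusted p = 1.68e-05) at 36 h, and the log2 differences at 72 h were 1.85 and 2.24, all called by edgeR.

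Trib3, which binds and restrains ATF4 and CHOP, stood at 6.38, 16.5 and 10.3 CPM at 0 h, 19.3, 24.9 and 26.7 CPM with BSA and 16.4, 20.8 and 23.2 CPM with FGF10 at 36 h. It rose with BSA at both times (1.12 ± 0.27, adjusted p = 0.00734 at 36 h; 1.53 ± 0.28, adjusted p = 0.000917 at 72 h) and with FGF10 at 36 h (0.89 ± 0.27, adjusted p = 0.019), where 1 library lay within the 0 h range and the call was lost without 0 h replicate 1, 0 h replicate 4 or FGF10 36 h replicate 4. Both 36 h calls of Trib3 were lost in the fit of the groups compared alone, and that with FGF10 also by limma voom. At FGF10 72 h Trib3 did not pass (0.71 ± 0.27, adjusted p = 0.0634, edgeR).

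3 further regulators rose with BSA at 72 h. Ddit3 went from 11.5, 24 and 16.9 CPM at 0 h to the levels given above (2.2-fold, log2 difference 1.14 ± 0.26 SE, adjusted p = 0.00464), and Vldlr from 11.4, 7.84 and 4.51 CPM (1.02 ± 0.26, adjusted p = 0.00869). Nupr1 stood at 238, 2122 and 673 CPM at 0 h, 1080.3, 1747 and 2188 CPM with BSA at 36 h and 645, 2934 and 2511 CPM with FGF10 at 36 h. All 3 BSA 72 h libraries of Nupr1 were above the other 12 libraries (2.29 ± 0.71, adjusted p = 0.0334 against 0 h), but the call was lost when 0 h replicate 1 and FGF10 36 h replicate 4 were left out, and without any of 5 single libraries, those of BSA 72 h and 0 h replicates 1 and 4; without 0 h replicate 2 the difference was 3.44, called. With FGF10 at 72 h the 3 genes differed from 0 h by 0.12 (Ddit3), 0.19 (Vldlr) and 0.95 (Nupr1), none called.

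2 regulators fell with FGF10 and did not pass against 0 h with BSA by edgeR. Ppp1r15a stood at 37, 183 and 70.9 CPM at 0 h, 29.4, 47.1 and 50.6 CPM with BSA and 19.6, 26.1 and 31.8 CPM with FGF10 at 36 h. Its log2 difference from 0 h was -1.90 ± 0.46, adjusted p = 0.00642 with FGF10 and -1.19 ± 0.45, adjusted p = 0.0689 with BSA at 36 h, and -2.16 ± 0.46, adjusted p = 0.00408 and -1.13 ± 0.45, adjusted p = 0.0861 at 72 h. Sesn2 differed from 0 h by -0.66 ± 0.15, adjusted p = 0.00349 (FGF10) and -0.27 ± 0.15, adjusted p = 0.206 (BSA) at 36 h, and by -0.55 ± 0.15, adjusted p = 0.0133 and 0.06 ± 0.15, adjusted p = 0.808 at 72 h. The direct FGF10-BSA tests above passed for Sesn2 at 72 h and for Ppp1r15a at neither time. Without 0 h replicate 2 the FGF10 differences of Ppp1r15a were -1.06 and -1.33, still called. DESeq2 also called Ppp1r15a lower with BSA at both times, and limma voom at 72 h. The Sesn2 call at FGF10 72 h was lost without FGF10 72 h replicate 3 or 4 (adjusted p up to 0.0635, edgeR). By edgeR Atf4 was not called against 0 h in any group (113, 186 and 132 CPM at 0 h; log2 differences -0.28 to 0.26), nor was Chac1 (-0.92 to 0.98). Chac1 was called higher in BSA 72 h by limma voom (0.95, adjusted p = 0.021) and without 0 h replicate 2, and lower in FGF10 72 h without 0 h replicate 1 or with the replicate number as a block.

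In the amino acid and one-carbon group, Slc7a11, which imports cystine, was near the floor of counting at 0 h, 1.35, 0.484 and 0.495 CPM. It reached 27.5, 7.17 and 9.52 CPM with BSA and 36, 14.4 and 9.87 CPM with FGF10 at 36 h, and 3.69, 5.36 and 5.83 and 3.72, 4.48 and 5.3 CPM at 72 h. No cultured library overlapped 0 h, and within each 36 h group replicate 1 was the highest. Slc7a11 rose 17.5-fold with BSA (log2 difference 4.13 ± 0.66 SE, adjusted p = 0.000652) and 23.8-fold with FGF10 (4.58 ± 0.67, adjusted p = 0.000226) at 36 h, and was still called at 72 h (2.56 ± 0.66, adjusted p = 0.0129, and 2.42 ± 0.67, adjusted p = 0.0156, edgeR). These folds rest on 32, 5 and 9 counts at 0 h. At 36 h the log2 differences were 4.88 (BSA) and 5.33 (FGF10) without 0 h replicate 1. When replicate 1 of the cultured group was dropped instead, they were 3.29 and 3.85, and all of these were called. The 72 h calls were lost without 0 h replicate 4, that with FGF10 also without 0 h replicate 2 (adjusted p up to 0.0634, edgeR). Both 72 h calls of Slc7a11 were also lost by limma voom, and that with FGF10 with no filter on low counts.

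Mthfd2, a mitochondrial enzyme of the folate cycle, stood at 12, 13.5 and 8.58 CPM at 0 h and rose in all 4 groups. It was at 21.2, 26.6 and 26.5 CPM with BSA and 33.8, 27.7 and 39 CPM with FGF10 at 36 h, and at 20.6, 23.2 and 28.8 and 15.6, 18.2 and 22.4 CPM at 72 h. Every cultured library was above every 0 h library. The log2 differences from 0 h were 1.13 ± 0.20, adjusted p = 0.00082 (BSA 36 h), 1.56 ± 0.20, adjusted p = 4.14e-05 (FGF10 36 h), 1.09 ± 0.20, adjusted p = 0.00103 (BSA 72 h) and 0.73 ± 0.20, adjusted p = 0.0133 (FGF10 72 h). The last call was lost without 0 h replicate 4 or FGF10 72 h replicate 4 (adjusted p up to 0.0738, edgeR).

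Psat1, the aminotransferase of serine synthesis, stood at 44.1, 10.8 and 6.33 CPM at 0 h, 75.5, 47.7 and 54.9 CPM with BSA and 108, 57.5 and 97.3 CPM with FGF10 at 36 h. All 6 libraries of 36 h were above 0 h. It passed the test with FGF10 (2.08 ± 0.57, adjusted p = 0.0137) and not with BSA (1.52 ± 0.56, adjusted p = 0.0675), and at 72 h with neither by edgeR (28.7, 32.4 and 33.7 CPM with BSA, 34.8, 33.3 and 60.2 CPM with FGF10; 0.61 and 1.05). The Psat1 values turned on 0 h replicate 1: without it the log2 differences were 2.81 (BSA 36 h), 3.38 (FGF10 36 h) and 2.34 (FGF10 72 h), and all 4 cultured groups were called higher, as they were by limma voom. Without 0 h replicate 2 the FGF10 36 h call was lost (adjusted p = 0.050005, edgeR). Asns, asparagine synthetase, was at 44.7 to 92.8 CPM over all libraries and rose in BSA 36 h, FGF10 36 h and BSA 72 h (0.60, 0.60 and 0.70; 0.37 at FGF10 72 h). Without 0 h replicate 4 both 36 h calls of Asns were lost, and that of BSA 36 h also without BSA 36 h replicate 2 or 3 (adjusted p up to 0.0715). Shmt2 rose with FGF10 at 36 h (0.72 ± 0.18, adjusted p = 0.00561). Its call at FGF10 72 h (0.50 ± 0.18, adjusted p = 0.0486) held in 3 of the 15 fits without 1 library (adjusted p up to 0.202) and was lost with BSA 72 h libraries 2_1 and 2_2 summed. The amino acid exchanger Slc7a5 was called with FGF10 at 36 h (0.68 ± 0.25, adjusted p = 0.045) and kept that call in 5 of the 15 (adjusted p up to 0.191, edgeR).

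3 metabolic members each fell in 1 comparison with 0 h. Slc3a2 fell with FGF10 at 36 h (-0.64 ± 0.17, adjusted p = 0.00943; 0.062 without 0 h replicate 2), and the proline synthesis enzyme Aldh18a1 with FGF10 at 72 h (-0.48 ± 0.16, adjusted p = 0.0334; up to 0.151 without 0 h replicate 1 or 4 or FGF10 72 h replicate 2 or 4). Phgdh, the entry enzyme of serine synthesis, fell with BSA at 72 h (-0.93 ± 0.29, adjusted p = 0.0317). The Phgdh call rested on 0 h replicate 1, where it stood at 43.3, 22.3 and 17.1 CPM in replicates 1, 2 and 4: without that library the adjusted p was 0.204 (edgeR), and the call was also lost without BSA 72 h library 2_1 or 2_2. At FGF10 36 h the log2 difference of Phgdh was -0.50, and -0.01 without 0 h replicate 1.

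Of the sensors, Ern1 stood at 13.6, 25 and 28.9 CPM at 0 h and fell in every cultured group. It was at 6.84, 8.01 and 9.75 CPM with BSA and 10.6, 13 and 4.05 CPM with FGF10 at 36 h, and at 9.6, 8.78 and 12.2 and 5.97, 7.69 and 6.4 CPM at 72 h. No cultured library reached the lowest 0 h library. The log2 differences were -1.45 ± 0.35, adjusted p = 0.00684, -1.28 ± 0.35, adjusted p = 0.01, -1.14 ± 0.34, adjusted p = 0.0256 and -1.75 ± 0.36, adjusted p = 0.00205 in that order (edgeR). The Ern1 call in BSA 72 h was lost without 0 h replicate 2 or 4 or without BSA 72 h library 2_1 or 2_2 (adjusted p up to 0.101). Eif2ak3 was not called in any comparison by edgeR (5.41 to 10.7 CPM over all libraries); limma voom called it lower in FGF10 72 h than at 0 h (-0.56, adjusted p = 0.028). Xbp1 was at 339, 500.1 and 537 CPM at 0 h and fell with FGF10 at 36 h (-0.49 ± 0.17, adjusted p = 0.0337, edgeR). That call was lost without 0 h replicate 2 or 4 or without FGF10 36 h replicate 1 or 3 (adjusted p up to 0.148). With BSA at 36 h Xbp1 stood at 469, 456 and 436 CPM and was not called by edgeR. The plasma and B cell markers, of cells with high Xbp1, summed to 5.61 to 13.9 CPM at 0 h. They summed to 0.178 to 0.56 CPM with BSA and 0.19 to 0.261 CPM with FGF10 at 36 h. Igkc, Ighm and Igha, the immunoglobulin genes listed, were at 0 with FGF10 at 36 h. The part of these cells in the Xbp1 level was not tested.

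Several chaperones rose at 36 h in both groups. Hsp90b1 (GRP94) stood at 391, 366 and 317 CPM at 0 h, 463, 616 and 559 CPM with BSA and 649, 569.7 and 589.7 CPM with FGF10 at 36 h. Both groups were above 0 h without overlap (0.61 ± 0.14, adjusted p = 0.00563, and 0.75 ± 0.14, adjusted p = 0.000976). At 72 h it was at 434, 401 and 437 CPM with BSA, not called (0.24). With FGF10 it was at 480.4, 464 and 553 CPM, called (0.48 ± 0.14, adjusted p = 0.0201, edgeR). That call was lost without 0 h replicate 2 or 4 or FGF10 72 h replicate 4 (adjusted p up to 0.0934, edgeR). Of the exon bases of Hsp90b1, 15.7% are shared with other genes, whose reads the counting cannot part from it.

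Manf, a secreted ER stress factor, stood at 81.5, 118 and 79.2 CPM at 0 h, 113, 174 and 155 CPM with BSA and 154, 156 and 249 CPM with FGF10 at 36 h. The BSA group overlapped 0 h in 1 library and the FGF10 group did not. Manf rose in both (0.67 ± 0.21, adjusted p = 0.0274, and 1.01 ± 0.21, adjusted p = 0.0018), and the BSA call was lost without any of 4 libraries, 0 h replicates 1 and 4 and BSA 36 h replicates 2 and 3 (adjusted p up to 0.107). By 72 h it was back at 108, 100.4 and 97.1 CPM with BSA and 120.2, 103 and 122 CPM with FGF10, neither called. Manf shares 9.25% of its exon bases with other genes, whose reads likewise cannot be parted from it.

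Creld2, an ER folding factor, stood at 77.7, 87 and 71.8 CPM at 0 h, 97.8, 138 and 136 CPM with BSA and 97.5, 104 and 170.4 CPM with FGF10 at 36 h (0.65 ± 0.19, adjusted p = 0.019, and 0.66 ± 0.19, adjusted p = 0.0138). All 6 libraries of 36 h were above 0 h; FGF10 replicate 4 was the highest, and without it the FGF10 call was lost. Both Creld2 calls were lost without 0 h replicate 4, and that with BSA without BSA 36 h replicate 2 or 3 (adjusted p up to 0.0722, edgeR). At 72 h Creld2 was at 79.8, 92 and 89.7 CPM with BSA and 85.8, 80.3 and 86.1 CPM with FGF10. Dnajb11, a co-chaperone of BiP, rose in both 36 h groups too (0.51 and 0.61 on the log2 scale). Hspa5 stood at 439, 654 and 506 CPM at 0 h, 626, 722 and 634 CPM with BSA and 762, 761 and 689 CPM with FGF10 at 36 h. It rose with FGF10 (0.47 ± 0.16, adjusted p = 0.0321), where the groups did not overlap, and did not pass with BSA (0.31 ± 0.16, adjusted p = 0.172); the FGF10 call was lost without 0 h replicate 1 or 4 or FGF10 36 h replicate 1 or 3 (adjusted p up to 0.125). Edem1 rose with FGF10 at 36 h from 36.1, 25.5 and 30.7 CPM at 0 h (0.55 ± 0.14, adjusted p = 0.00635) and not with BSA (0.01).

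2 members of the ER arm's folding and degradation group fell. Dnajc3, which encodes p58IPK, a co-chaperone and inhibitor of PERK, stood at 219.6, 211 and 219 CPM at 0 h, 118, 162 and 148 and 147, 163 and 184 CPM at 36 h with BSA and FGF10, and 129, 137 and 128 and 126, 115 and 117 CPM at 72 h. All 12 cultured libraries were below 0 h, and the test was passed in all 4 groups (-0.60, -0.40, -0.72 and -0.86, with adjusted p from 0.000195 to 0.0258, edgeR). The FGF10 36 h call of Dnajc3 was lost without 0 h replicate 1 or 4 or FGF10 36 h replicate 1 or 3 (adjusted p up to 0.0898). Dnajc3 carries an ERSE in its window, as Hsp90b1 and Creld2 do, and its direction was opposite to theirs at 36 h. Herpud1 fell with FGF10 at 36 h (-0.62 ± 0.15, adjusted p = 0.00444) and at 72 h (-0.81 ± 0.15, adjusted p = 0.000863), and did not with BSA (-0.26 and -0.05).

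By edgeR the remaining ER-arm members were not called against 0 h in any group. limma voom called Calr (0.56) and Sdf2l1 (0.54) higher in BSA 36 h and Pdia4 (-0.31) lower in BSA 72 h, as log2 differences. Pdia4 and Pdia6, disulfide isomerases, spanned 141 to 205 and 368 to 632 CPM over the 15 libraries, and Calr 443 to 1132 CPM. The chaperone Hyou1 spanned 4.87 to 22.3 CPM, with its lowest value in FGF10 36 h replicate 4. The co-chaperones Dnajb9 and Sdf2l1 spanned 6.04 to 17 and 54.9 to 148 CPM, and the highest Sdf2l1 value was in that same library.

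**Figure D4:**
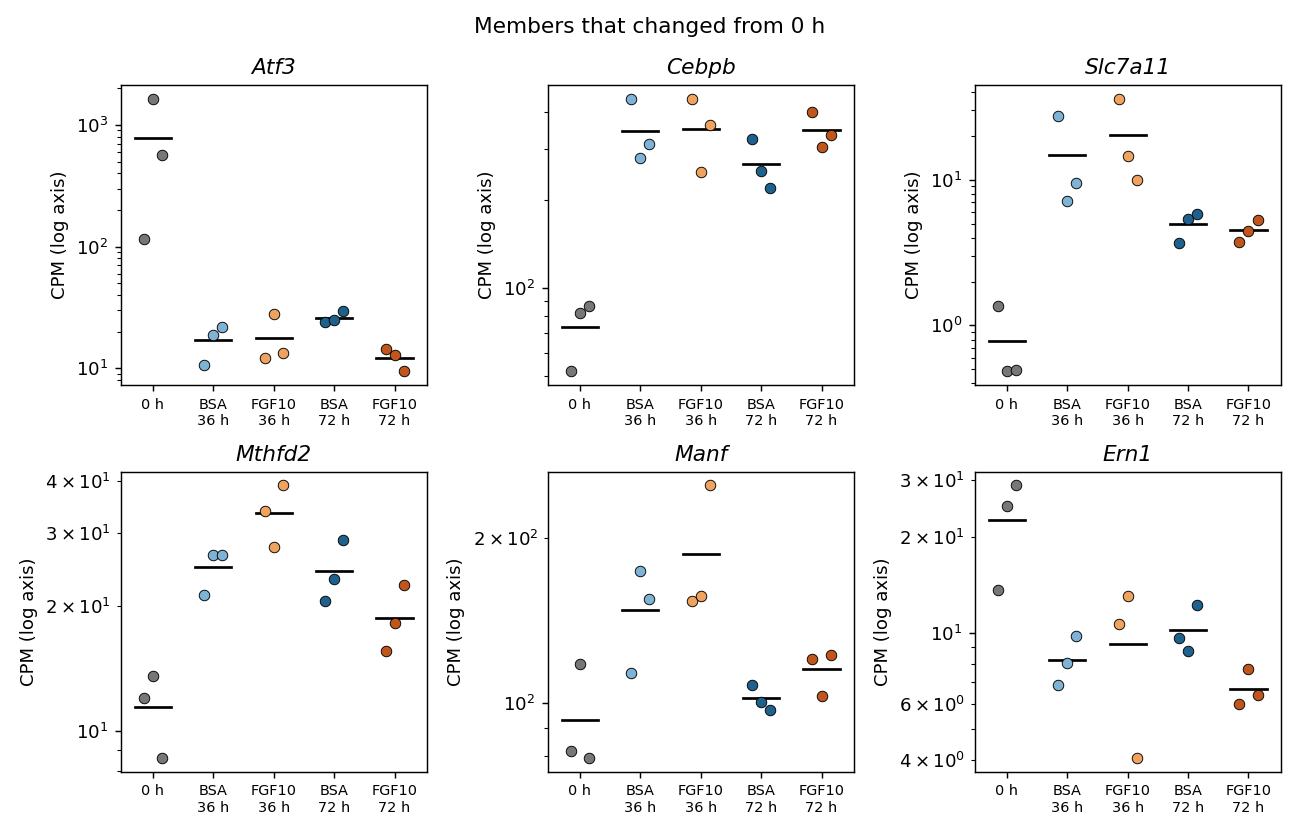
CPM of 6 members in every library by group (points) on log axes, with the arithmetic mean of each group (line; n = 3). Atf3 and Ern1 are lower in all 12 cultured libraries than at 0 h, Cebpb, Slc7a11 and Mthfd2 are higher in all 12, and Manf is highest at 36 h.

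Levels of cell type markers differed between 0 h and the 36 h groups as well, though the fibroblast, leukocyte and adipocyte sums overlapped with BSA. Between 0 h and BSA 36 h, endothelial markers summed to 64.4 to 275 and 17.4 to 46.7 CPM (5 of 8 fell), fibroblast markers to 479.8 to 884 and 195 to 514 CPM (6 of 9 fell), leukocyte markers to 323 to 507 and 240.3 to 642 CPM (5 of 8 tested fell) and luminal markers to 29815 to 43315 and 14580.0 to 22506 CPM (5 of 9 fell). At FGF10 36 h the endothelial and fibroblast sums were 8.75 to 19.7 and 137 to 213 CPM (8 of 8 and 9 of 9 fell). Adipocyte markers summed to 65.9 to 553 CPM at 0 h, and to 36.4 to 87.3 (BSA) and 16.4 to 24.5 CPM (FGF10) at 36 h. The 9 milk genes summed to 821 to 3848 CPM at 0 h. Their sums were 818 to 1309 (BSA) and 1268 to 1314 CPM (FGF10) at 36 h, and 161 to 232 and 113 to 239 CPM at 72 h. The part of these marker and milk gene levels in the changes of the members was not tested.

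Between 36 h and 72 h fewer members were called. With BSA 0 of 36 passed by edgeR, against 0.469% of all genes tested. At an unadjusted p under 0.05 there were 12 members, and the share of all genes at that threshold is not given. limma voom called 2 higher (Slc3a2 and Vldlr) and 7 lower (among them Hspa5, Hsp90b1 and Manf), and DESeq2 0. Over all 18140 genes limma voom called 1126 higher and 1460 lower. The medians of the arms took opposite signs, 0.06 for the ATF4 arm (0.43 for its regulators) and -0.27 for the ER arm, against -0.01 over all genes. With FGF10, Mthfd2 (-0.84 ± 0.20, adjusted p = 0.042) and Edem1 (-0.58 ± 0.14, adjusted p = 0.0491, edgeR) fell, against 1.91% of all genes called (1.42% higher, 0.491% lower). Of the members, 16 of 19 in the ATF4 arm and 15 of 17 in the ER arm had a lower level at 72 h. The median log2 difference over all genes tested was -0.01 in this comparison. These directions are description only. Edem1 went from 43.6, 40.5 and 51.5 CPM at 36 h to 27.1, 29.1 and 34.6 CPM at 72 h with FGF10, without overlap. Both calls were lost under several settings, including the fit of the groups compared alone.

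Other genes of the same pathways were counted from lists of their own. Of 34 other ATF4 targets, 18, 19, 15 and 13 were higher than 0 h in BSA 36 h, FGF10 36 h, BSA 72 h and FGF10 72 h, and 3, 5, 4 and 6 were lower. Over all genes 12.7%, 19.3%, 12.2% and 13.8% were higher and 14.4%, 20.5%, 13% and 16% lower. Here and in the lists below, up to 3 called genes are named per comparison. A gene not named for a group may still be called there. The mitochondrial folate enzyme Aldh1l2 rose with BSA at 36 h (2.30 ± 0.29 SE, adjusted p = 5.52e-05) and at 72 h (3.21 ± 0.29 SE, adjusted p = 2.82e-06) and with FGF10 at 72 h (3.13 ± 0.29 SE, adjusted p = 2.45e-06), while the tryptophanyl-tRNA synthetase gene Wars fell in all 4 groups, from -1.33 ± 0.13 SE, adjusted p = 3.17e-06 to -1.80 ± 0.13 SE, adjusted p = 4.02e-07. The death receptor gene Tnfrsf10b (1.30 ± 0.17 SE, adjusted p = 5.94e-05) and the cysteine synthesis gene Cth (2.37 ± 0.34 SE, adjusted p = 0.000114) rose with FGF10 at 36 h. The glutamine transporter gene Slc1a5 fell with BSA at both times (-1.30 ± 0.18 SE, adjusted p = 0.000122; -1.20 ± 0.18 SE, adjusted p = 0.000223), and Pck2 fell with FGF10 at 72 h (-1.21 ± 0.17 SE, adjusted p = 9.02e-05).

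Between FGF10 and BSA at 72 h, 2 of the 34 fell: the proline synthesis gene Pycr1 (-1.04 ± 0.23 SE, adjusted p = 0.0203) and the transcription factor Atf5 (-1.53 ± 0.42 SE, adjusted p = 0.0439). limma voom called 7 lower and 1 higher, and DESeq2 2 lower. Over all genes edgeR called 2.98% lower and 3.01% higher, limma voom 2283 lower and 2541 higher of 18140, and DESeq2 985 lower. The list's median was -0.10, with 24 of 34 on the lower side. At 36 h edgeR called 0 of 34 (6 at an unadjusted p under 0.05; 2 higher by limma voom and 3 higher by DESeq2), and the median was 0.14. Over all genes at 36 h edgeR called 2.34%, limma voom 690 higher and DESeq2 465 higher. Of 14 genes of the eIF2 kinases and eIF2 machinery, 1 differed at 72 h, Eif2s1, the subunit that the kinases phosphorylate, which was higher with FGF10 (0.51 ± 0.13 SE, adjusted p = 0.0389; limma voom called 2 higher and 1 lower). Against 0 h 3, 6, 1 and 4 were higher and 0, 2, 2 and 2 lower, in the order given above. The shares over all genes are those given above for the other ATF4 targets.

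Of 44 other genes of ER folding, export and degradation, 1 fell with FGF10 against BSA at 72 h, Sil1, the exchange factor of BiP (-0.64 ± 0.11 SE, adjusted p = 0.00505). limma voom called 7 of the 44 higher and 10 lower in this comparison, and DESeq2 1 lower; 13 had an unadjusted p under 0.05 by edgeR. Over all 18140 genes limma voom called 2541 higher and 2283 lower here, and edgeR called 5.99% at an adjusted p under 0.05. At 36 h edgeR called 0 (13 at an unadjusted p under 0.05; limma voom 3 higher and 4 lower; DESeq2 2 higher and 2 lower). Against 0 h, 4, 9, 4 and 5 of the 44 were higher and 7, 10, 7 and 10 lower, beside the shares over all genes given above. The ER oxidase gene Ero1a rose in all 4 groups, from 1.497 ± 0.20 SE, adjusted p = 6.32e-05 to 2.08 ± 0.20 SE, adjusted p = 4.93e-06. Creb3l2 fell with BSA at 36 h (-0.83 ± 0.15 SE, adjusted p = 0.000974), Mbtps1, the protease that cuts ATF6, with FGF10 at 36 h (-0.68 ± 0.11 SE, adjusted p = 0.000361), and Ero1b with FGF10 at 72 h (-1.33 ± 0.24 SE, adjusted p = 0.000739). Derl3, of the degradation channel, rose (1.64 ± 0.33 SE, adjusted p = 0.00191) and the isomerase gene Txndc5 fell (-0.58 ± 0.12 SE, adjusted p = 0.00294) with BSA at 72 h.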

How the data were processed

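RNA from 15 libraries was sequenced after poly(A) selection with a strand-marking kit, per the labels' protocols. The deposited counts are whole fragments per gene name, made by the authors with featureCounts 2.0.1 on exons of paired reads with no strand setting, per the file headers. Per the submitters' processing notes, cutadapt 1.9.1, HISAT2 2.2.1 and the build GRCm39 were used; the notes also name HTSeq and DESeq2. Without strand, reads of overlapping genes cannot be parted. GRCm38.p6 promoter windows were used for sequence only, and no position was moved between builds.

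From the counts, edgeR 4.0.16 (R 4.3.3) gave TMM factors, the filterByExpr filter (minimum count 10, minimum total 15), 1 robust quasi-likelihood fit of 15 libraries in 5 groups (10 residual degrees of freedom) and 9 comparisons, adjusted by Benjamini-Hochberg over 18140 genes. The SE is the log2 difference divided by the square root of F. Levels per length are CPM per kilobase of exon. Alternatives were DESeq2 size factors, other filters, the replicate number as a block, libraries 2_1 and 2_2 summed, only the groups compared, limma 3.58.1 voom, DESeq2 1.42.0 and each library left out; 2 libraries left out together was chosen after seeing the data. The scripts were tested on simulated data.

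The members and lists were chosen with earlier results of these data known. Every member was counted in each comparison. The value in every library was given for members called between FGF10 and BSA, for the 5 called members of each arm with the largest absolute log2 difference from 0 h at 36 h and the top 3 in each other comparison, and for Atf4, Ddit3, Atf3, Hspa5 and Xbp1; values for other members were shown after being seen. From other lists up to 3 called genes with the smallest p were named per comparison. 11 tRNA synthetase genes were matched by older symbols.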

Additional observations from a re-analysis of the deposited data

How the results depend on the processing

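Of 88 differences of single members followed through all alternatives (those called, and the larger ones between FGF10 and BSA), 2 changed sign in some fit, neither of them called. Atf3 at FGF10 36 h against BSA 36 h (0.06) was -0.14 by limma voom, and -0.18 and -0.42 when BSA 36 h replicate 1 or FGF10 36 h replicate 3 was dropped; over all single libraries left out it ran from -0.42 to 0.28. Slc7a11 there (0.45) ran from -0.28, when FGF10 36 h replicate 1 was dropped, to 1.27. Of the called members, 8 of 12 (BSA 36 h against 0 h), 10 of 22 (FGF10 36 h against 0 h), 8 of 12 (BSA 72 h against 0 h) and 5 of 12 (FGF10 72 h against 0 h) kept their call in all 24 alternative fits, as did 0 of 4 between FGF10 and BSA at 72 h and 0 of 2 between FGF10 72 h and 36 h. The causes of these moves were not tested.

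For FGF10 against BSA at 72 h the count of lower members (4) was 2 with libraries 2_1 and 2_2 summed, 16 with only the groups compared (and 1 higher, Shmt2), 11 by limma voom, 8 by DESeq2 and 10 without the 2 libraries that stand apart; leaving out 1 library gave 0 to 8. Over all genes the lower count (541) moved as well. It was 142 summed, 2466 with only the groups compared, 2283 by limma voom, 985 by DESeq2 and 1218 without the 2 libraries. Leaving out 1 library gave 60 to 855 genes. At 36 h (0 and 0), limma voom gave 1 higher and 1 lower, DESeq2 1 higher, and the fit without those 2 libraries 1 and 1; leaving out 1 library gave 0 to 1 higher and 0 lower. The adjusted p of Chac1, Herpud1, Ddit3 and Sesn2 at 72 h reached 0.0867, 0.0726, 0.173 and 0.147 with 1 library left out (edgeR).

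Against 0 h, BSA 36 h had 15 higher members by limma voom (9 in the report; 6 to 14 with 1 library left out) and 5 lower without the 2 libraries (3; 3 to 5). FGF10 36 h had 7 higher and 3 lower with only the groups compared (14 and 8; 9 to 14 and 6 to 8). BSA 72 h had 2 lower with no filter and 2 with the libraries summed (4; 2 to 5; higher 6 to 9). FGF10 72 h had 3 higher with no filter (5; 1 to 7) and 12 lower without the 2 libraries (7; 5 to 9). Counts over all genes in those fits moved too, here with the main fit in parentheses. BSA 36 h had 3102 higher (2312) and 3038 lower (2604) genes. FGF10 36 h had 1647 higher (3504) and 2200 lower (3721). BSA 72 h had 2184 and 1651 lower (2358), and FGF10 72 h had 2147 higher (2507) and 3314 lower (2910). From 36 h to 72 h with BSA (0 and 0 members), the higher count was 5 with only the groups compared, 2 by limma voom and 3 without the 2 libraries, and the lower count 1, 7 and 3 in turn; leaving out 1 library gave 0 to 1 for each. Over all genes the higher count was 442, 1126 and 479 (59), and the lower count 740, 1460 and 1091 (26). With FGF10 the lower count of members (2) was 0 summed, 0 with only the groups compared, 5 by limma voom, 6 by DESeq2 and 1 without the 2 libraries (0 to 2). Over all genes it was 58, 40, 395, 320 and 183 in turn (89).

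The labels do not say that a replicate number marks a shared source, and not every same-numbered pair deviated together: over 21 such pairs the correlation of deviations had a median of 0.0266 (9 over 0.1), against -0.0121 over 69 other pairs (10 over 0.1). The 9 were all the same-numbered pairs that hold neither BSA 72 h nor a replicate 4, a hint of pairing from the data among those libraries. With the replicate number as a block the count was 1 higher (Vldlr) for BSA 72 h against 36 h and 4 lower for FGF10 72 h against 36 h; the other counts stayed within 1.5 times, 4 lower at 72 h between FGF10 and BSA among them (Chac1, Herpud1, Ddit3 and Vldlr). The block ended the calls of Sesn2 there (adjusted p = 0.0649), Xbp1 in FGF10 36 h (0.0613) and Phgdh in BSA 72 h (0.161) against 0 h, and Mthfd2 from 36 h to 72 h with FGF10 (0.0578), all by edgeR. Over all genes the block gave 79 higher for BSA 72 h against 36 h, where the main fit gave 59. For FGF10 72 h against 36 h it gave 218 lower, where the main fit gave 89.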

Other observations

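Of 14 heat shock genes, most of them chaperones of the cytosol, 4 rose and 0 fell between BSA and FGF10 at 72 h (edgeR; 0 lower also at an unadjusted p under 0.05, by limma voom and by DESeq2), the side opposite to that of the called stress response members. Among them were the mitochondrial chaperonin Hspd1 (0.62 ± 0.13 SE, adjusted p = 0.0137), the constitutive chaperone Hspa8 (0.66 ± 0.16 SE, adjusted p = 0.0255) and Hspa4l (0.63 ± 0.16 SE, adjusted p = 0.0297), and Hspa4l was also higher at 36 h (0.87 ± 0.15 SE, adjusted p = 0.00996). Over all genes 3.01% rose and 2.98% fell between BSA and FGF10 at 72 h. Against 0 h, 9, 9, 4 and 9 of the 14 were higher in BSA 36 h, FGF10 36 h, BSA 72 h and FGF10 72 h, with Hsph1 at 1.72 ± 0.14 SE, adjusted p = 1.06e-06 for FGF10 36 h. Over all genes 12.7%, 19.3%, 12.2% and 13.8% were higher in that order. By limma voom 10, 10, 7 and 10 of the 14 were higher and 2, 2, 2 and 3 lower.

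Of 12 targets of NRF2, the oxidative stress factor that also acts on Slc7a11, 8, 8, 6 and 6 were higher than 0 h in the same order. Over all genes 12.7%, 19.3%, 12.2% and 13.8% were higher. By limma voom 9, 9, 7 and 7 of the 12 were higher and 1, 1, 2 and 2 lower. Gclc, another of the 12, fell with FGF10 at 72 h (-1.57 ± 0.19 SE, adjusted p = 2.12e-05, edgeR). The quinone reductase Nqo1 rose in all 4 groups, by 4.07 ± 0.22 SE, adjusted p = 6.42e-08 with BSA at 36 h, and the sulfiredoxin Srxn1 by 2.05 ± 0.15 SE, adjusted p = 4.75e-07. Between FGF10 and BSA, the haem oxygenase Hmox1 fell at 36 h (-1.81 ± 0.29 SE, adjusted p = 0.00716) and at 72 h (-1.97 ± 0.30 SE, adjusted p = 0.00332), and Osgin1 at 72 h (-1.73 ± 0.29 SE, adjusted p = 0.00597). Macrophages also express Hmox1, and 6 of the 8 leukocyte markers tested fell between BSA and FGF10 at 72 h; their part in it was not tested.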
